A study of Mus musculus with 6 samples.

Results

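The genes described here are 8 feedback genes and targets of receptor tyrosine kinase signalling: the Sprouty genes Spry1, Spry2 and Spry4, the Spred genes Spred1 and Spred2, the transcription factor genes Etv4 and Etv5, and the phosphatase gene Dusp6. They were taken by symbol, and all 8 were found among the 41388 genes of the deposited count files. The genes were chosen by known membership of this feedback group and with their levels, spread and co-variation in the same libraries, above all the high Spry2 of some female libraries, already known. Those values, and the comparisons between sexes and between record sets that rest on them, are therefore given for these genes as a description.

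RNA was measured in cells of mouse dorsal root ganglia, the sensory ganglia beside the spinal cord, from spinal levels T11 to S1 of C57BL/6 embryos at 18.5 dpc (days after coitum). All embryos carried a Ret-EGFP reporter, and live EGFP-positive cells were sorted, so each library holds cells in which the Ret reporter was active. The genotype label, Tg(Ret-EGFP)SJ, reads as a transgene, whereas the series description places EGFP in the Ret locus of heterozygotes, so the number of intact Ret alleles is not settled here. EGFP-negative cells were not analysed here.

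The 3 female libraries were A (60 ganglia of 3 embryos), B (20 ganglia of 1 embryo) and C (20 ganglia of 1 embryo). The 3 male libraries were A (60 ganglia of 3 embryos), C (40 ganglia of 2 embryos) and D (40 ganglia of 2 embryos). Female B and female C were described in another form in the records and are called record set 2, and the other 4 libraries are record set 1. Record set 2 therefore held females only and single embryos only, so that record form, embryo number and whatever else those records share cannot be told apart.

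Receptor tyrosine kinases such as Ret and the Fgf receptors signal through Ras, Raf and Mek to the kinase Erk, and Erk signalling switches on genes that restrain the same route. Sprouty proteins dampen signalling between the receptor and Erk, Spred proteins bring the Ras inhibitor neurofibromin to the membrane, and Dusp6 is a cytoplasmic phosphatase that inactivates Erk. Etv4 and Etv5 are Ets transcription factors of the Pea3 group. In the mouse kidney, Gdnf signalling through Ret raises Etv4 and Etv5, and Spry1 limits Ret signalling.

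Total counts were 17861500 to 29330101 per library, so a count of 0 allowed up to 0.102 to 0.168 CPM (counts scaled to a common library total), taken as 3 counts. This limit covers counting error only, because the amplified reads carried no molecular identifiers. The Y-linked gene Ddx3y checked the sexes, with 0.0176 to 0.0770 RPKM in females and 9.41 to 38.8 RPKM in males. Xist, the RNA of the inactive X chromosome, went against the label of male C. It stood at 6.22 to 11.0 RPKM in females and at 0.0233 RPKM in male A, 3.28 RPKM in male C and 0.0321 RPKM in male D. Sex values are therefore also given without male C. Neuronal markers were abundant, with Tubb3 at 2389 ± 550 RPKM and Stmn2 at 2781 ± 415 RPKM (SD, n = 6). Glial transcripts were also present, with Fabp7 at 359 ± 57.3 RPKM (SD, n = 6). Mitochondrial genes took 1.10% of counts in male A and 1.28% in male C, against 2.02% to 2.91% in the other libraries. Male A and male C were also the lowest libraries in Spry2 and the highest in Etv5, and a link was not tested.

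The bases before the annotated starts of Spry2, Etv5 and Dusp6 are shown because the values that follow turn on these 3 genes. Spry2 and Etv5 differed in opposite directions in female B and female C, and Dusp6 stood high in male A. RefSeq windows of 250 bases before to 50 after a start on GRCm38.p6 were examined for 6 of the 8 genes, and none was examined for Spry4 or Etv4. Printed 5′ to 3′ is the stretch upstream of both the RefSeq and the GENCODE start: chr14:105896820-105897069 on the minus strand for Spry2, chr16:22439720-22439820 on the minus strand for Etv5 and chr10:99262981-99263230 on the plus strand for Dusp6. Capitals mark a motif match.
Spry2: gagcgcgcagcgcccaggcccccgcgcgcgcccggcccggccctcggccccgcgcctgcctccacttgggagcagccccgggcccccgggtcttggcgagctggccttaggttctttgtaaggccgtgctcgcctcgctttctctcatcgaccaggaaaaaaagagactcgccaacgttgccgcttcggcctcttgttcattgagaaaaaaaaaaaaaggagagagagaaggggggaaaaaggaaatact
Etv5: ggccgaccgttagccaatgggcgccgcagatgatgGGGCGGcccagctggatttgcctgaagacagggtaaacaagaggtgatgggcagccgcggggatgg
Dusp6: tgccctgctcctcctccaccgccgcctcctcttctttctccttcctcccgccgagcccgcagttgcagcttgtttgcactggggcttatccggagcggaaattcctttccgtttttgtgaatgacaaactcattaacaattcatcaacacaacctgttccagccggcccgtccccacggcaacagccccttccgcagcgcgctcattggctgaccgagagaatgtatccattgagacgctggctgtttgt

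Motifs of 5 kinds were searched on both strands of the full 300-base windows. Of 32851 windows of that length, the AP-1 motif TGANTCA occurred in 7.81%, the CRE motif TGACGT in 7.51%, the Ets motif CCGGAA in 14.9%, the GC box GGGCGG in 35.7% and the TATA box TATAAA in 13.6%. The Spry2 window held 1 Ets match, starting 33 bases after the start and so past the printed stretch. In the Etv5 window at the outer start there were 3 GC boxes, at -215, -99 and -55 relative to the RefSeq start, of which the first is printed. The Dusp6 window held none of the 5 motifs, and no matches overlapped in these windows. Spred2 held a CRE match at -52 and a GC box at -40. Spred1 held GC boxes at -110, -7 and 13, and Spry1 held a GC box at -60. A match is a description of the letters and was not tested as a binding site.

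Levels are given as RPKM, the CPM after TMM scaling divided by exon length in kilobases, so that genes can be set beside each other per length. Means are ± SD over all 6 libraries. Among the Sprouty genes, Spry2 (ENSMUSG00000022114, GRCm38 chr14:105891949-105896819, minus strand) had the highest level. Spry2 stood at 43.9, 266.5 and 124 RPKM in females A, B and C, against 27.8, 12.2 and 37.1 RPKM in males A, C and D. Female B and female C stood far above the rest, and female A lay above the males by a small margin, so the sexes did not overlap. Its mean was 85.3 ± 97.0 RPKM (n = 6), with 807 to 10044 counts per library, and 49.1 RPKM without female B.

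Spry4 (ENSMUSG00000024427, chr18:38586268-38601268, minus strand), a second Sprouty antagonist, varied much less. Spry4 stood at 13.6, 17.3 and 13.6 RPKM in females A, B and C, against 9.03, 10.4 and 12.4 RPKM in males A, C and D. Every female was above every male, with female B highest, and the mean was 12.7 ± 2.88 RPKM (n = 6). Spry1 (ENSMUSG00000037211, chr3:37639947-37644598, plus strand), the Sprouty gene tied to Ret in the kidney, was close to the detection limit. It had 10, 7 and 2 counts in females A, B and C, against 8, 12 and 3 counts in males A, C and D. These correspond to 0.0344 to 0.157 RPKM, too few for a comparison, and Spry1 did not pass the low-count filter. An overlapping gene on the opposite strand, Gm42922, shares 710 exon bases with Spry1, and whether reads were counted by strand is not stated in the labels or notes used here.

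The 2 Spred genes had nearly the same level. Spred1 (ENSMUSG00000027351, chr2:117121374-117182279, plus strand) stood at 5.17, 5.76 and 4.63 RPKM in females A, B and C, against 3.77, 2.41 and 6.00 RPKM in males A, C and D. Spred2 (ENSMUSG00000045671, chr11:19924375-20024026, plus strand) stood at 4.63, 3.82 and 3.50 RPKM in females A, B and C, against 2.64, 3.97 and 7.20 RPKM in males A, C and D. Male D was the highest library for both genes and the sexes overlapped. The lowest library was male C for Spred1 and male A for Spred2. Their means were 4.62 ± 1.35 RPKM for Spred1 and 4.29 ± 1.57 RPKM for Spred2 (n = 6 each).

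The Pea3 genes differed in level from each other and in pattern. Etv4 (ENSMUSG00000017724, chr11:101769742-101785371, minus strand) stood at 1.79, 2.60 and 3.18 RPKM in females A, B and C, against 1.78, 1.88 and 1.56 RPKM in males A, C and D. Female B and female C were the 2 highest libraries, and female A lay within the male range. Etv5 (ENSMUSG00000013089, chr16:22381309-22439719, minus strand) stood at 15.0, 10.9 and 9.18 RPKM in females A, B and C, against 15.6, 17.7 and 13.9 RPKM in males A, C and D. Here female B and female C were the 2 lowest libraries, and female A again lay within the male range. The ratio of Etv5 to Etv4 was 8.38, 4.17 and 2.89 in females A, B and C, against 8.76, 9.43 and 8.91 in males A, C and D. In record set 1 the ratio thus stayed within a narrow range, and both libraries of record set 2 lay below it. Means were 2.13 ± 0.623 RPKM for Etv4 and 13.7 ± 3.16 RPKM for Etv5 (n = 6 each). Etv5 shares 1700 bases at 98.6% identity with the gene model Gm4798, so its level depends on how the counting treated reads that match both.

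Dusp6 (ENSMUSG00000019960, chr10:99263231-99267488, plus strand) stood at 21.8, 36.4 and 23.4 RPKM in females A, B and C, against 76.0, 16.9 and 24.9 RPKM in males A, C and D. One library, male A, stood at 2.09 times the next highest, female B, male C was the lowest library, and male D lay within the female range. The mean over all libraries was 33.3 ± 21.9 RPKM (n = 6), and the mean of the other 5 libraries was 24.7 RPKM.

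**Figure D1:**
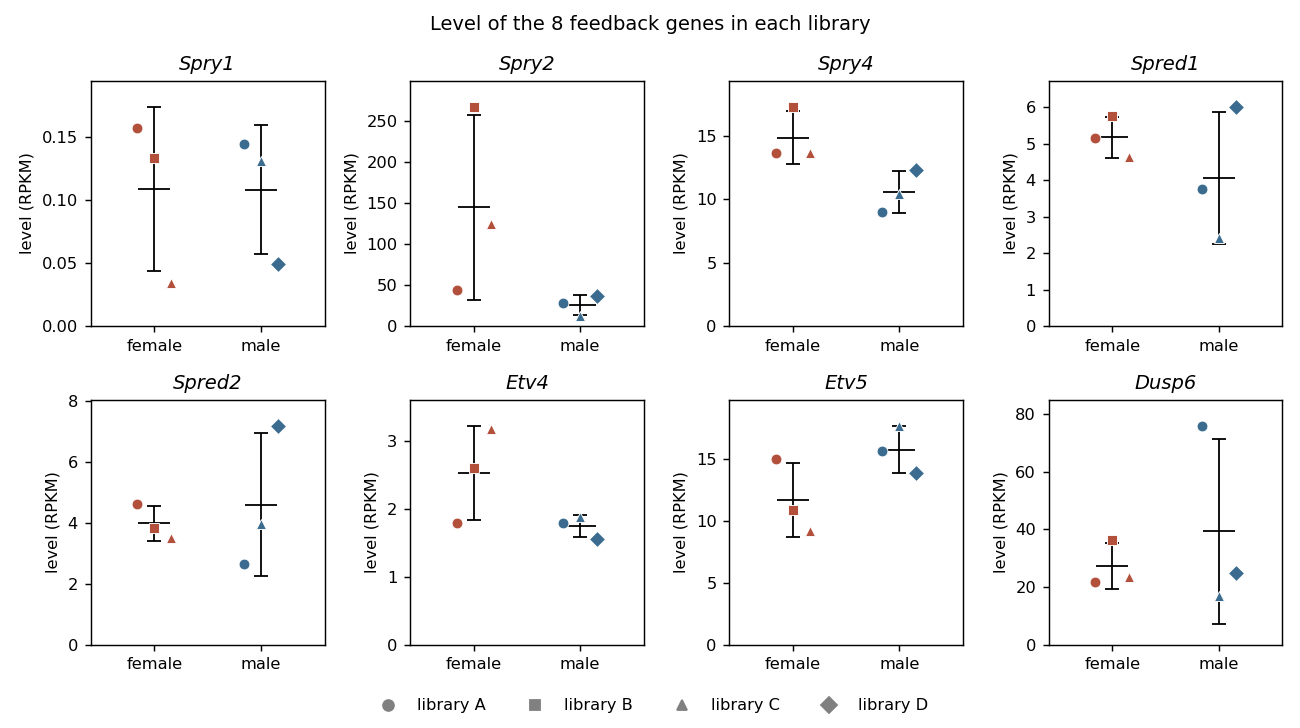
Level of each of the 8 genes (RPKM, linear axis from 0, a separate scale for each gene) in the female libraries and the male libraries. Points are libraries, and bars give mean ± SD (n = 3 each). Spry2 is set apart by female B at 266.5 RPKM and female C at 124 RPKM, and Dusp6 by male A at 76.0 RPKM.

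By mean level the order was Spry2, Dusp6, Etv5, Spry4, Spred1, Spred2, Etv4 and Spry1. Of neighbouring pairs, 3 kept their order in 4 of 6 libraries only: Spry2 over Dusp6, Etv5 over Spry4, and Spred1 over Spred2. Dusp6 was above Etv5 in 5 of 6 libraries. The steps from Spry4 to Spred1, from Spred2 to Etv4 and from Etv4 to Spry1 held in 6 of 6 libraries. Spry2 was higher than 94.9% of the 14958 genes tested, Dusp6 than 87.8%, Etv5 than 74.9% and Etv4 than 36.4%.

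Spread set Spry2 and Dusp6 apart from the other genes. The coefficient of variation over the 6 libraries was 114% for Spry2 and 65.9% for Dusp6, larger than in 99.0% and 93.9% of the genes tested. Among the other tested genes of the set it ran from 22.6% for Spry4 to 36.5% for Spred2, against a median of 25.3% over all genes tested. Spry2 and Spry4, which encode related antagonists, therefore varied by very different amounts. The ratio of Spry2 to Spry4 was 3.22, 15.4 and 9.12 in females A, B and C, and 3.08, 1.18 and 3.00 in males A, C and D.

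To compare the sexes, all genes past the low-count filter were fitted with edgeR's quasi-likelihood test, and effects are female minus male on the log2 scale. Spry2 differed by 2.49 (SE 0.62), with 145 ± 113 RPKM in females and 25.7 ± 12.6 RPKM in males (SD, n = 3 each). Spry4 differed by 0.49 (SE 0.21), Etv4 by 0.53 (SE 0.30) and Spred1 by 0.35 (SE 0.32). Negative differences were fitted for Etv5 at -0.43 (SE 0.24), Spred2 at -0.21 (SE 0.35) and Dusp6 at -0.53 (SE 0.50). None of the 7 tested genes passed a Benjamini-Hochberg adjusted p of 0.05 in edgeR, where 4 of 14958 genes did, or 0.0267%, all 4 of them Y-linked. At an unadjusted p under 0.05 there were 2 of the 7 genes, Spry2 and Spry4, against 4.42% of all genes. Limma voom passed 0 of the 7, and DESeq2 passed Spry2 alone, at an adjusted p of 0.011 where 0.087% of its genes passed. Spry2 alone of the 7 also passed in edgeR without a low-count filter, where 0.0542% of genes passed, and with the replicate letter as a block, where 0.515% did. Letter B is female only and letter D male only. The block fit therefore rests on female A against male A and female C against male C. These letters do not pair the libraries, so the block call supports nothing.

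Every female was above every male for Spry2 and Spry4, a pattern found in 4.18% of all genes tested, and for none of the 7 genes was every female below every male, the pattern of 3.88% of genes. Across the 7 genes the median log2 difference was 0.35, beside -0.004 over all genes tested. The members' median was 0.08 without male C and 0.04 within record set 1. Without male C the difference was 2.16 (SE 0.66) for Spry2, 0.47 (SE 0.26) for Spry4, 0.08 (SE 0.28) for Spred1 and -0.30 (SE 0.41) for Spred2. It was 0.59 (SE 0.36) for Etv4, -0.34 (SE 0.28) for Etv5 and -0.89 (SE 0.45) for Dusp6. Without male D it was 0.75 (SE 0.27) for Spred1 and 0.27 (SE 0.28) for Spred2, so the Spred values depended on which male was left out. Without male A and male C, where male D alone stands for the males, it was -0.22 for Spred1 and -0.86 for Spred2. Without male A the Dusp6 difference turned positive, at 0.38 (SE 0.28), and without female B the Spry2 difference was 1.71 (SE 0.53). Within record set 1, where female A alone stands for the females, the differences were 0.77 (SE 0.57) for Spry2, 0.36 (SE 0.36) for Spry4, 0.04 (SE 0.46) for Etv4 and -0.07 (SE 0.35) for Etv5. The sex differences of Spry2, Etv4 and Etv5 were thus much smaller without female B and female C.

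Record set 2 was set against record set 1 with sex as a term, so that the estimate rests on female B and female C against female A. Spry2 differed by 2.15 (SE 0.73) on the log2 scale, with 195 ± 100.4 RPKM in record set 2 (n = 2) and 43.9 RPKM in female A. The mean of all of record set 1, which includes the males, was lower, at 30.3 ± 13.7 RPKM (n = 4). That mean belongs to the fit without the sex term, where Spry2 differed by 2.69 (SE 0.47). Etv4 differed by 0.69 (SE 0.42) and Etv5 by -0.59 (SE 0.29). The other values were 0.46 (SE 0.82) for Dusp6, 0.18 (SE 0.32) for Spry4, 0.01 (SE 0.51) for Spred1 and -0.34 (SE 0.55) for Spred2. No gene of the set passed the adjusted threshold in edgeR, and 0 of 14958 genes did, or 0%. At an unadjusted p under 0.05 there was 1 gene of the 7, Spry2, and 483 genes in all. DESeq2 and limma voom passed none of the 7 genes.

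Fitted in females only, Spry2 differed by 2.16 (SE 0.38) and alone of the 7 was past the adjusted threshold in edgeR, where 0.83% of genes passed. That fit sets 2 libraries against female A alone, which is assumed to vary as they do, on Spry2 values that were known when the genes were chosen, so the call supports nothing. Of 2 fits without the sex term that were chosen after the data were seen, the one without male A passed Spry2 alone of the 7, where 1.3% of genes passed. The one without male C passed 0 genes, with Spry2 at 2.43 (SE 0.35) and an adjusted p of 0.254 in edgeR. Both libraries of record set 2 were above all 4 of record set 1 for Spry2, Spry4 and Etv4, as for 11.3% of all genes tested, though Spry4 in female A and female C was nearly equal. Both were below all 4 for Etv5, as for 10.3% of genes. Separation of this kind was common in these libraries.

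**Figure D2:**
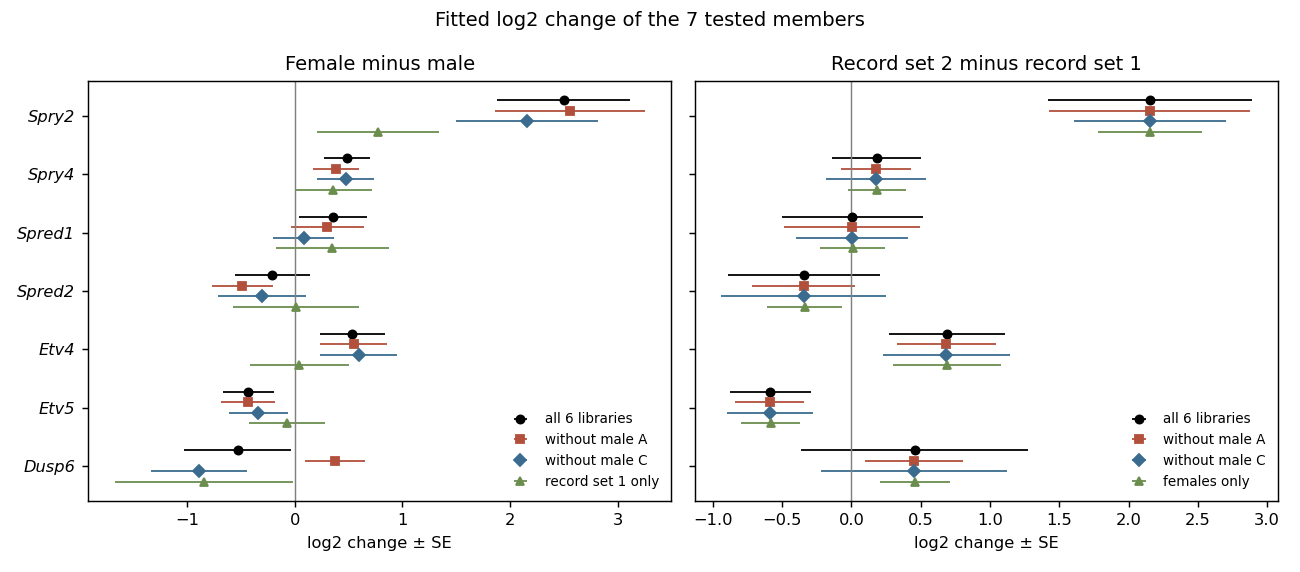
Fitted log2 change ± SE of the 7 tested genes (x axis) for female minus male and for record set 2 minus record set 1, with all 6 libraries and with libraries left out. Spry2 lies at 2.49 between the sexes and at 0.77 within record set 1 only, and Dusp6 changes from -0.53 with all libraries to 0.38 without male A.

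Co-variation was examined on log2 RPKM across the 6 libraries for the 28 pairs of genes. It was positive in 13 pairs and negative in 15, with a median Pearson r of -0.04, so the 8 genes did not move as one group. The pairs with Spry1, at 2 to 12 counts a library, carry much counting error. By exact permutation tests 3 pairs had an unadjusted two-sided p under 0.05, and 0 pairs did after Benjamini-Hochberg adjustment over the 28. With 6 libraries the smallest p this permutation test can give is 0.0014. Adjustment over 28 pairs is therefore hard to pass, and the 0 says little about a lack of co-variation. Spry2 and Spry4 were correlated at r = 0.85 (Spearman's rho 0.94, n = 6), and r was 0.68 without female B and male C, the 2 libraries farthest from the median of Spry2. Spry2 and Etv5 were correlated at r = -0.89 (rho -0.89, n = 6), and at -0.96 without the same libraries. Within the 4 libraries of record set 1 these values were 0.57 and -0.90, over few points. With each sex's mean subtracted from each gene they were 0.57 and -0.77. In that form 0 of the 28 pairs had an unadjusted p under 0.05 by the permutation test.

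Etv4 and Etv5 behaved otherwise. Over all 6 libraries their r was -0.86 (rho -0.49), 1 of the 3 pairs with an unadjusted p under 0.05. Female B and female C lay apart from the other 4 libraries in both genes, and without them r was 0.88 over 4 libraries, so their relation over all 6 libraries rests on female B and female C and could not be tested within either cluster. Points share a library in every pair, and no depth or composition term was fitted.

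**Figure D3:**
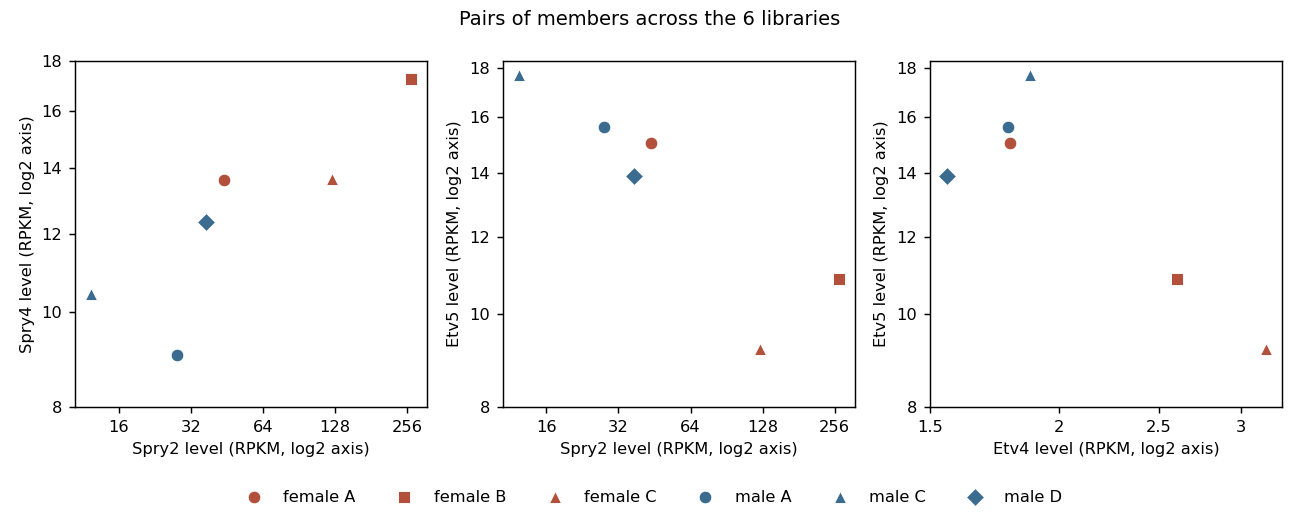
Level of one gene against another (RPKM, log2 axes) for Spry2 with Spry4, Spry2 with Etv5, and Etv4 with Etv5, 1 point per library. Etv5 is lowest in female B and female C, the 2 libraries with the highest Spry2 and Etv4.

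Relatives outside the set showed a different picture. Spred3, the third Spred gene, had 1.46 ± 0.325 RPKM (n = 6) and Etv1, the third Pea3 gene, 31.0 ± 6.30 RPKM, above both Etv4 and Etv5. Etv1 stood at 32.8, 29.5 and 34.7 RPKM in females A, B and C, against 19.9, 30.6 and 38.5 RPKM in males A, C and D, with male A lowest. Of the other Dusp phosphatases, Dusp1, which is nuclear, averaged 5.52 ± 1.73 RPKM and Dusp7, a cytoplasmic Erk phosphatase like Dusp6, 3.38 ± 0.635 RPKM (n = 6 each). Dusp4 averaged 1.01 ± 0.321 RPKM and Dusp5 1.33 ± 0.343 RPKM (n = 6 each). Dusp2 reached at most 0.443 RPKM, and Dusp9 had counts in male C alone. In male A, the library with the highest Dusp6, Dusp7 stood at 4.14 RPKM and Dusp4 at 1.47 RPKM, the highest of 6 libraries in both. Dusp5 stood at 1.06 RPKM there and Dusp1 at 5.00 RPKM, below female B at 8.55 RPKM. Male A was the highest library for 3 of the 7 tested relatives, against 31.1% of all genes. For 0 of the 7 it was at least at 2 times the next library, against 4.42% of all genes. Of these 8 relatives, 7 were tested and 0 passed the adjusted threshold in edgeR in either comparison. Both libraries of record set 2 were above all of record set 1 for Spred3 alone of the 7, against 11.3% of all genes tested.

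Receptors upstream of these genes ranged from abundant to barely detected, and 20 of the 24 listed passed the low-count filter. Gfra3, the artemin co-receptor, averaged 221 ± 42.1 RPKM and Ret 24.7 ± 3.70 RPKM (n = 6 each). Ret stood at 28.4, 26.0 and 20.7 RPKM in females A, B and C, against 20.1, 24.4 and 28.7 RPKM in males A, C and D, so it was lowest in male A, and female B and female C lay on either side of its median. Of ligands, Fgf13, an intracellular member of the Fgf family that is not secreted, averaged 802 ± 152 RPKM, Nrg1 58.8 ± 17.8 RPKM and Kitl 51.7 ± 16.7 RPKM. In the Erk cascade, Nras averaged 301.5 ± 98.1 RPKM, Mapk3, which encodes Erk1, 225 ± 19.4 RPKM and Araf 52.7 ± 12.6 RPKM (n = 6 each). No gene of 20 receptors, 8 ligands or 21 cascade genes tested passed the adjusted threshold in edgeR in either comparison. The median log2 sex differences of the 3 lists were -0.10, 0.20 and 0.09, and their record set differences were -0.22, 0.09 and -0.11.

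Partners of Sprouty and Spred proteins were present too. Cav1, a membrane protein that binds Sprouty, averaged 108 ± 11.4 RPKM, the phosphatase subunit Ppp2ca 16.5 ± 3.46 RPKM and the kinase Dyrk1a 7.82 ± 3.06 RPKM (n = 6 each). Nf1, which encodes neurofibromin, stood at 2.24, 2.99 and 3.30 RPKM in females A, B and C, against 1.06, 1.79 and 2.23 RPKM in males A, C and D. Both libraries of record set 2 were highest, as they also were for Dyrk1a. Of the 9 partners tested, 2 had that order and 0 the opposite order, against 11.3% and 10.3% of all genes. Of regulators of Etv proteins, Trib2 averaged 62.5 ± 10.9 RPKM, Atxn1 11.8 ± 4.69 RPKM and Det1 2.34 ± 0.474 RPKM. None of the 9 partners and 7 regulators tested passed the adjusted threshold in edgeR in either comparison. Their median log2 sex differences were 0.08 and 0.18, and their record set differences were -0.12 and 0.13.

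Other Erk-responsive genes did not follow one pattern. Ier3 averaged 36.1 ± 10.0 RPKM, Myc 33.5 ± 7.17 RPKM and Phlda1 10.0 ± 3.35 RPKM (n = 6 each), and each was higher in both libraries of record set 2 than in all of record set 1. Of 12 tested genes, 3 had that order, against 11.3% of all genes, and 2 had the opposite order, against 10.3%. Of the 12, 0 passed the adjusted threshold in edgeR in either comparison. The medians were -0.12 for female minus male and 0.07 for record set 2 minus record set 1. Male A was the highest library for 6 of the 12, against 31.1% of all genes. For 3 of the 12 it was also at least at 2 times the next library, as for Dusp6, against 4.42% of all genes.

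Immediate early genes, which switch on within minutes of stimulation or tissue handling, were also read by library. Fos stood at 90.3, 290.8 and 212 RPKM in females A, B and C, against 206 RPKM in male A, 76.3 RPKM in male C and 101 RPKM in male D. The 3 libraries high in Fos were thus female B and female C, which were high in Spry2, and male A, which was high in Dusp6. Nr4a1 averaged 27.2 ± 25.7 RPKM and Klf6 41.4 ± 3.60 RPKM (n = 6 each). Of 19 immediate early and stress genes tested, 6 were higher in both libraries of record set 2 than in all of record set 1 (Fos, Fosb, Egr1, Klf4, Srf and Btg2) and 1 was lower, against 11.3% and 10.3% of all genes. Male A was the highest library for 7 of the 19, a share near the 31.1% of all genes for which it was highest. For 4 of the 19 it was both highest and at least at 2 times the next library, against 4.42% of all genes. The summed level of the list was 212, 497 and 374 RPKM in females A, B and C, and 464, 196 and 239 RPKM in males A, C and D. None passed the adjusted threshold in edgeR, the median log2 differences were -0.04 between the sexes and 0.55 between the record sets, and their part in Spry2 and Dusp6 was not tested.

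**Figure D4:**
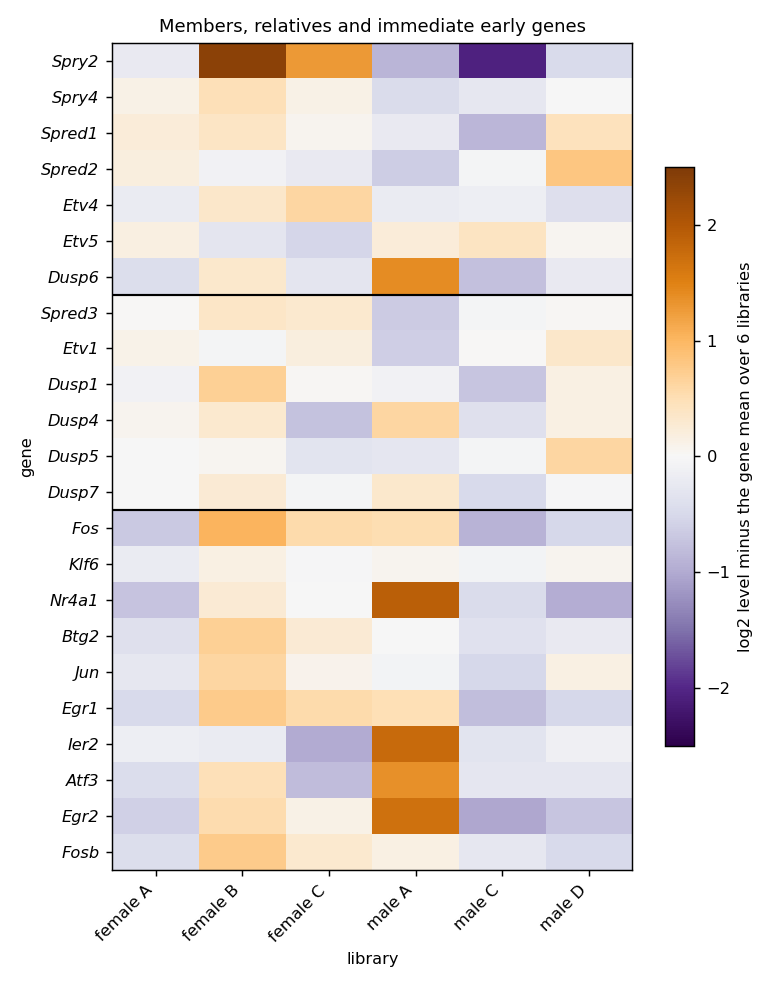
Log2 level minus the gene's mean over the 6 libraries (colour) for the 7 tested genes of the set, their tested relatives other than Dusp2, which had 0 counts in 1 library, and the 10 immediate early and stress genes of highest mean level. Orange is above and purple below the mean. Spry2 and Fos are orange in female B and female C, and Dusp6, Nr4a1 and Egr2 are orange in male A.

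Markers of several other cell types moved with Dusp6 in male A. Sums run over all genes of a list found in the files. Of 15 glial genes tested, 12 were highest in male A, and the list's summed level was 1758 RPKM there and 900.1 to 1110 RPKM in the other 5 libraries. The fibroblast and meninges list had 8 of 11 genes highest in male A, with sums of 452 RPKM in male A and 179 to 252 RPKM in the others. Endothelial and pericyte genes had 8 of 9 highest, with sums of 16.4 RPKM in male A and 4.87 to 14.5 RPKM in the others. All 12 of 12 cell cycle genes were highest there, with sums of 103 RPKM in male A and 34.7 to 41.0 RPKM in the others. Over all genes tested, male A was the highest library for 31.1%, and it was both highest and at least at 2 times the next library, as for Dusp6, for 4.42%. Gfap was at 0 in female A and male D, and Sox10, a defining glial factor, stood at 16.1 RPKM in male A and 2.49 to 3.80 RPKM elsewhere. In bulk RNA, more cells of a type and more RNA per cell cannot be told apart, and the part of these cells in the Dusp6 level was not tested.

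In female B and female C, which had the highest Spry2, the glial sums were 1110 and 900.1 RPKM, the highest after male A and the lowest of the 6 libraries. The cell cycle sums were 40.8 RPKM in female B and 34.7 RPKM in female C, against 37.8 to 103 RPKM in record set 1. Sensory neuron markers had sums of 7431, 10207 and 9342 RPKM in females A, B and C, and of 7762, 8124 and 7657 RPKM in males A, C and D. For 7 of 16 of them both libraries of record set 2 were above record set 1, against 11.3% of all genes. For 0 of the 16 both were below, against 10.3% of all genes. Of 15 glial genes tested 0 were above and 4 below, and of 11 fibroblast and meninges genes 1 was above and 3 below. Of 9 endothelial and pericyte genes 0 were above and 2 below, as were 0 and 2 of 12 cell cycle genes. Of 13 leukocyte markers 3 were tested, all 3 highest in male A. The whole leukocyte list summed to 15.4 RPKM in male A and 8.86 to 13.4 RPKM in the other libraries, and Ptprc stayed at or under 0.0351 RPKM. Erythroid genes did not share the male A pattern. Of 5 tested, 0 were highest in male A, and the list summed to 17.2 RPKM there and 12.1 to 68.1 RPKM in the other libraries.

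**Figure D5:**
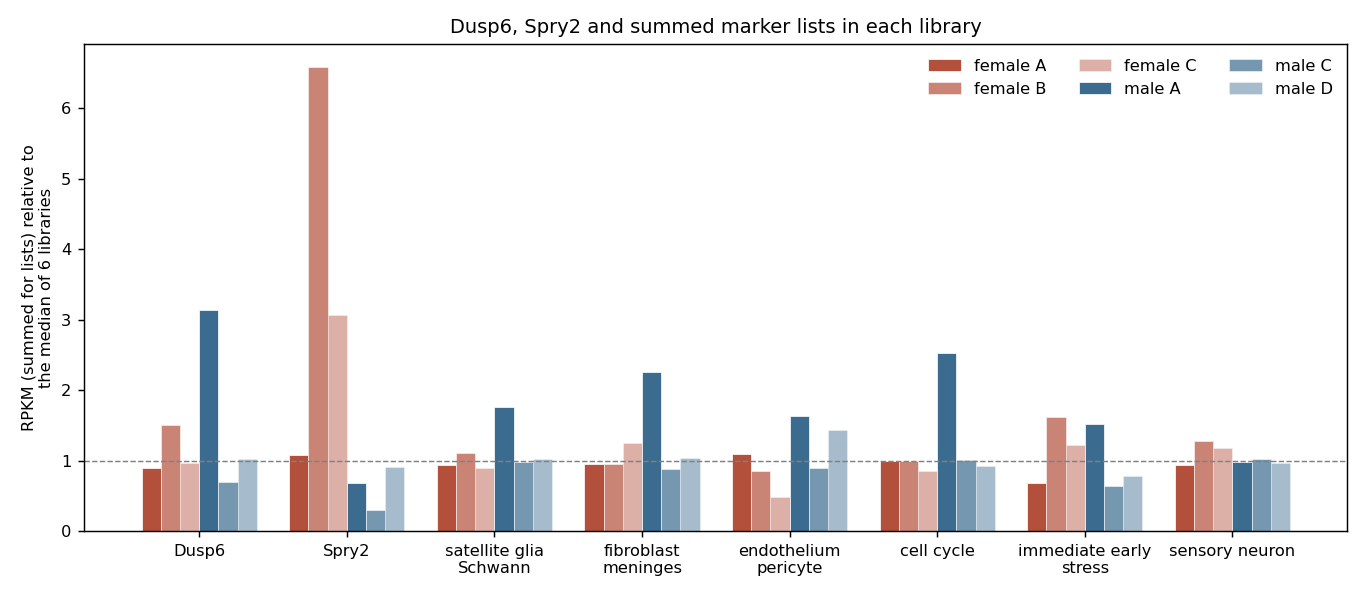
Level of Dusp6 and Spry2 and summed level of 6 gene lists in each library, relative to the median of the 6 libraries (linear axis from 0, dashed line at the median). Male A stands highest for Dusp6, glial, fibroblast, endothelial and cell cycle genes, and female B and female C stand highest for Spry2.

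Genes with the most similar profile to Spry2 were sought among 10467 genes with a mean of at least 5 CPM. The 5 highest by Pearson r of log2 levels over the 6 libraries were Ado at 0.994, Tsc22d2 at 0.991, Sec22b at 0.988, Dus4l at 0.986 and Tob1 at 0.986. Tob1 stood at 6.10, 30.0 and 20.6 RPKM in females A, B and C, against 3.24, 1.36 and 6.41 RPKM in males A, C and D, also highest in female B and female C and lowest in male C. In all, 72 genes, or 0.688%, had r above 0.95 with Spry2. For the mean of the 8 genes, each scaled to its own spread, the 5 most similar were Prkar1a at 0.980, Tbp at 0.971, Mcts2 at 0.969, Orc5 at 0.969 and Gca at 0.965, and 8 genes had r above 0.95. Spry1, at 2 to 12 counts a library, entered that mean with the same weight as the other genes. With 6 libraries and this many genes these r values are a description of likeness.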

How the data were processed

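Libraries were made with a SMARTer amplification kit from 10 ng of RNA of sorted cells, per the labels' protocols. Per the submitters' processing notes, Subread and featureCounts 1.4.5 were used with GRCm38.p2; neither the labels nor those notes state how strand and multi-mapping reads were treated. Deposited by the authors were raw counts per Ensembl gene, with CPM and RPKM columns. The deposited CPM and RPKM equal the counts scaled by library total and exon length within 4.5e-11 and were not used further. Symbols were found for 40254 of 41388 gene identifiers.

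Levels are RPKM from the counts with TMM factors. Counts were tested with edgeR 4.0.16 (quasi-likelihood, filterByExpr on sex, 14958 genes, Benjamini-Hochberg over all, threshold 0.05) in R 4.3.3, with limma 3.58.1 and DESeq2 1.42.0 as alternatives. The fits were also run on simulated counts, whose outcome is not reported here and supports none of the results. Correlations used scipy 1.17.1, and near-identical copies blastn 2.17.0 (at least 95% identity over at least 150 bases). The libraries came from different embryos.

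The 8 genes, the 20 gene lists (216 genes, Spry3 and Rfwd2 unmatched) and the tests were chosen with earlier results of these data known. Named genes were the 8 genes, their relatives, the 3 list members of highest mean level, list members past the threshold, any set beside a value of the 8 genes, and the 5 genes most like Spry2 or the mean profile. Defining markers given beside a result (Sox10, Gfap, Ptprc), Etv1's values by library, and the immediate early genes named by their order were chosen after their values were seen. A list gene that the rule names is not reported here. Replicate letters were checked for pairing.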

Additional observations from a re-analysis of the deposited data

Results flagged for a closer look

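In the 8 genes and their relatives, 16 genes in all, 3 had a library whose gap to the nearest of the other 5 libraries, divided by the whole range, exceeded Dixon's critical value of 0.625 for 6 libraries. Chance alone flags about 1 in 20 genes where values are normally spread and genes are chosen without regard to them. The spread of the 8 genes was known when they were chosen. Their flags are therefore a description and are not to be set against that rate. Dusp6 had a ratio of 0.670 through male A, at 76.0 RPKM. Dusp5 had a ratio of 0.672 through male D, at 1.98 RPKM. Dusp9 had a ratio of 1 through male C, at 0.0116 RPKM, the only library with any count; with 0 in the other 5 libraries the ratio is 1 for any count, so this entry carries no information and is not to be set against chance.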

How the results depend on the processing

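Between the sexes, 4 genes passed the adjusted threshold in edgeR, against 14 without a low-count filter, 13 with DESeq2, 1 with limma voom, 0 with record set as a term, 0 in record set 1 only, and 0 to 5 when 1 library was left out. Between the record sets 0 passed, against 3 without a low-count filter, 13 with DESeq2, 3 without the sex term, 115 in females only, 0 to 0 when 1 library was left out, and, in 2 fits without the sex term chosen after the data were seen, 199 without male A and 0 without male C. Spry2 passed between the sexes without a low-count filter (adjusted p 0.00928 in edgeR), with DESeq2 (0.011) and with the replicate block, and between the record sets in females only (0.0322) and without the sex term and male A (log2 2.65, 0.044), but not without the sex term and male C (0.254).

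The replicate letters do not pair the libraries: the deviations of same-letter libraries were correlated at -0.08 for A and 0.05 for C. With the letter as a replicate block, 77 genes passed and Spry2 differed by 2.00 (adjusted p 0.011 in edgeR). Only female A, male A, female C and male C inform that difference, and male C held Xist, so the call supports nothing. A block could not be fitted for the record sets, and female A could not be left out there.

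Of the 7 genes' log2 changes under the alternatives, 195 stayed within 1 SE of the main value and uncalled, 17 moved further and 5, all of Spry2, passed the threshold. The sign changed for Dusp6 (2 of 16 between the sexes, 2 of 15 between the record sets), Spred2 (4 of 16) and Spred1 (1 of 16 and 3 of 15). As TPM, mean levels were 0.307 for Spry1, 227.1 for Spry2, 35.4 for Spry4, 12.8 for Spred1, 12.1 for Spred2, 5.92 for Etv4, 38.9 for Etv5 and 92.5 for Dusp6, because TPM scales to a different total. The count of co-varying pairs was 0 in all alternatives, but with 4 or 5 libraries the exact test can hardly pass adjustment over 28 pairs, so those values say nothing about stability. Depth limits Spry1 alone of the 8 genes, at 2 to 12 counts a library.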
